A study of Arabidopsis thaliana with 6 samples.

Results

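The 5 genes SAPX, TAPX, GR1, AT3G11630 and NTRC encode enzymes of the leaf's defence against hydrogen peroxide, and their transcripts were followed across 6 arrays of Arabidopsis thaliana. A probe set is a group of short probes that together give 1 signal on each array. The members were taken by the gene symbols of the platform annotation, which pair them with 6 of the array's 8297 probe sets. TAPX was read by 2 of these probe sets, called the first (the brighter) and the second below, and each other gene by 1. The loci are AT4G08390 on chromosome 4 for SAPX, AT1G77490 on chromosome 1 for TAPX, AT3G24170 on chromosome 3 for GR1, AT3G11630 on chromosome 3, and AT2G41680 on chromosome 2 for NTRC.

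Chloroplasts in the light make superoxide and hydrogen peroxide at the thylakoid membrane, and a pair of routes removes the peroxide. In the ascorbate route, ascorbate peroxidases of the thylakoid (TAPX) and the stroma (SAPX) spend ascorbate to reduce peroxide, and glutathione, kept reduced by glutathione reductase, regenerates the ascorbate. In the thiol route, 2-Cys peroxiredoxins such as the product of AT3G11630 reduce peroxide with their own cysteines and are reduced again chiefly by NTRC, a plastid protein that joins an NADPH-dependent thioredoxin reductase to a thioredoxin. The working name of the group, chloroplast enzymes, holds for SAPX, TAPX, AT3G11630 and NTRC. It does not hold for GR1: locus AT3G24170 encodes the glutathione reductase known from the cytosol and peroxisomes, whereas the plastid and mitochondrial enzyme is encoded by GR (AT3G54660), which another probe set measured and which is described below beside GR1.

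The study concerns acclimation to light intensity, with 1 array for each of 6 codes: CL or CV followed by L, M or H. The letters CL or CV are called the start of the code here and the last letter, L, M or H, its ending; the labels do not say what they stand for, so no light level was assigned. For all arrays the total RNA came from unshaded rosette leaves of the accession Ws-2, with no genetic modification, at growth stage 3.90 and 60% humidity. The growth records of CLL and CVL add a dark period of 16 hours at 15 °C, M2 compost and the watering interval, and those of the other arrays give none of these. The number of plants pooled is left blank in the series record.

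The deposited signals had the same trimmed mean, 100.2, on every array, and medians between 20.0 and 26.1. The labels give a mean background between 56.06 and 73.52, and the lowest mean noise was 1.50 (CVM) and the highest 2.17 (CVL). A sign of RNA quality also differed between arrays. The ratio of the 3-prime to the 5-prime signal of the GAPDH control was 6.21 in CLH and 5.50 in CVH, and between 2.81 and 3.76 elsewhere. Of the leaf markers listed, RCA (Rubisco activase) was the only one on the array under a name, 1 of 9, with signals between 7731 and 10820; markers of root, flower, seed, senescent leaf, guard cell, phloem and epidermis were not measured under a name. In these whole leaves, fewer cells of a type and less RNA per cell cannot be told apart. With 1 array per code, the spread used in all tests below is that around an additive model of start and ending, fitted with limma to 5773 probe sets, and nothing in the labels says that the arrays hold separate plants or harvests, so the p-values reflect a spread that may be technical.

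Setting CV against CL addresses which transcripts differ between the starts whatever the ending. The 2-Cys peroxiredoxin gene AT3G11630 and its reductase gene NTRC were the members whose signals separated the starts on every array, each with CV about 1.7 times CL. SAPX was higher in CV at every ending but its ranges overlapped, and TAPX and GR1 were higher in CV on average, with GR1 and the second TAPX probe set lower in CV at 1 ending each. Over the 5 genes the median log2 change was 0.62 and all 5 fitted changes were above 0, against a median of -0.10 over all probe sets, of which 40.5% were above 0. Relative to that median the changes were 0.85 for AT3G11630, 0.81 for NTRC, 0.72 for SAPX, 0.55 for GR1 and 0.33 for TAPX. Taking off 1 median treats the shift as equal at all signal levels, which was not tested. After quantile normalization the changes were smaller, at 0.66, 0.78, 0.67, 0.47 and 0.24 in the same order. The labels name no processing batch, so start and any batch that runs with it cannot be told apart. After adjustment over all probe sets, 0 of the 5 passed at an adjusted p under 0.05, a threshold passed by 0.0346% of all probe sets (2 of 5773). At an unadjusted p under 0.05 stood 2 of the 5 genes, AT3G11630 and NTRC, and 748 of all probe sets (13.0%).

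AT3G11630 read 1056.1 (L), 1353.9 (M) and 1140.7 (H) on the CL arrays, and 1827.7 (L), 2233.1 (M) and 1898.9 (H) on the CV arrays. All CV arrays lay above all CL arrays, with means of 1987 ± 216.5 in CV and 1184 ± 153.5 in CL (SD, n = 3 each, over endings). CV was 1.73 times CL at L, 1.65 times at M and 1.665 times at H, so the difference was close to the same size at each ending, and within both starts M was the highest array and L the lowest. The fitted log2 change from CL to CV was 0.75 (SE 0.19, unadjusted 95% interval 0.30 to 1.19), higher in CV in 3 of 3 pairs of arrays with the same ending, with an adjusted p of 0.188 in limma. The change was larger than that of 95.5% of all probe sets. The suffix of this probe set (_s) is the manufacturer's mark for probes that can match more than 1 transcript. The close paralogue 2-Cys Prx B (AT5G06290) was not measured under a name, so a share of its RNA in this signal was not tested.

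NTRC read 103.7 (L), 99.7 (M) and 63.3 (H) on the CL arrays, and 177.3 (L), 135.5 (M) and 127.1 (H) on the CV arrays. The starts did not overlap, at 146.6 ± 26.9 in CV and 88.9 ± 22.3 in CL (SD, n = 3 each, over endings), and in both starts the L array was highest and the H array lowest. CV was 1.71 times CL at L, 1.36 times at M and 2.01 times at H. The fitted log2 change was 0.71 (SE 0.25, unadjusted 95% interval 0.15 to 1.28), in the same direction in 3 of 3 pairs, with an adjusted p of 0.291 in limma. Signals of AT3G11630 and NTRC thus share the separation of the starts but not the order of the endings. Of all probe sets, 7.36% had every CV array above every CL array, against 2 of the 5 members.

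**Figure D1:**
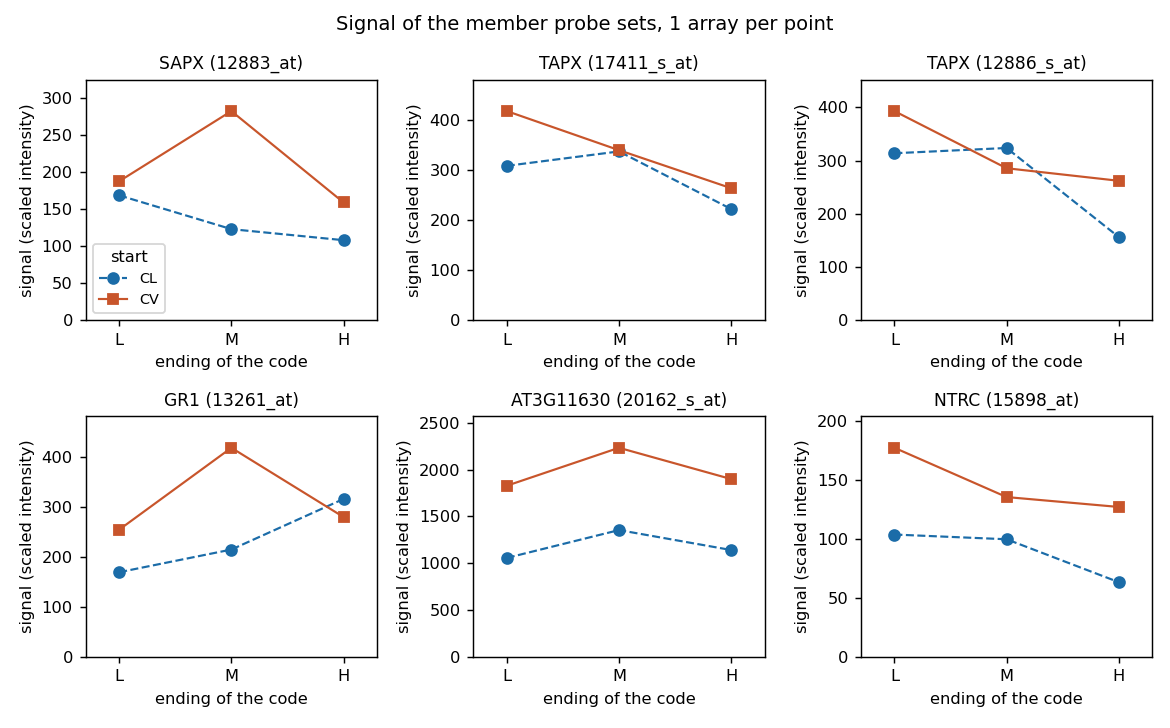
Signal (scaled intensity, linear axis from 0) of the 6 member probe sets by ending of the code, with CL arrays as circles on dashed lines and CV arrays as squares on solid lines; each point is 1 array and the lines only join arrays of a start; the first TAPX probe set is drawn ahead of the second. AT3G11630 and NTRC have no CV array below a CL array, whereas the lines of GR1 cross between M and H and those of the first TAPX probe set meet at M.

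Among the ascorbate peroxidase genes, SAPX had its widest gap between CV and CL at M, where the TAPX arrays lay closest; that contrast was not tested. SAPX, the stromal enzyme, read 168.3 (L), 122.7 (M) and 107.8 (H) on the CL arrays, and 187.3 (L), 282.0 (M) and 158.7 (H) on the CV arrays. CV was the higher at each ending, by 1.11 times at L, 2.298 times at M and 1.47 times at H, but CVH lay below CLL, so the starts overlapped. The fitted log2 change was 0.62 (SE 0.28, unadjusted 95% interval -0.01 to 1.25) with an adjusted p of 0.389 in limma. It depended on the M arrays: without CLM or CVM the change was 0.35, and without CLL or CVL it was 0.86.

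TAPX, the thylakoid enzyme, was measured by both of its probe sets. The first read 307.8 (L), 336.6 (M) and 221.6 (H) on the CL arrays, and 417.1 (L), 339.1 (M) and 263.2 (H) on the CV arrays. The second read 313.8 (L), 323.7 (M) and 156.2 (H) on the CL arrays, and 393.1 (L), 285.6 (M) and 262.0 (H) on the CV arrays. Both had their lowest signal in CLH and their highest in CVL, and they disagreed on the direction between CV and CL at M, where the ratios were 1.01 and 0.88. Fitted changes from CL to CV were 0.23 (SE 0.24) and 0.29 (SE 0.26), with unadjusted 95% intervals from -0.31 to 0.77 and from -0.31 to 0.90 and adjusted p of 0.722 and 0.684 in limma. CV was higher in 3 of 3 pairs of arrays for the first probe set and in 2 of 3 for the second. Both carry the _s suffix, and cross-matching with the related SAPX transcript was not tested.

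GR1 read 169.7 (L), 215.2 (M) and 316.7 (H) on the CL arrays, and 255.1 (L), 419.4 (M) and 280.4 (H) on the CV arrays. CV was 1.50 times CL at L and 1.95 times at M, and 0.885 times at H. Within CL the signal was lowest at L and highest at H, whereas within CV it was highest at M. The fitted log2 change from CL to CV was 0.45 (SE 0.28, unadjusted 95% interval -0.193 to 1.096), higher in 2 of 3 pairs, with an adjusted p of 0.536 in limma. The value moved with the arrays used: without CLM or CVM it was 0.20, and without CLH or CVH it was 0.76.

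Counted at each ending, CV was higher for 5 of the 5 genes at L, for 5 at M and for 4 at H. Of all probe sets, 38.8% were higher in CV at L, 38.1% at M and 54.0% at H. The median log2 difference of the genes was 0.58 at L (against -0.15 over all probe sets), 0.72 at M (against -0.18) and 0.54 at H (against 0.05). SAPX, TAPX by its first probe set, AT3G11630 and NTRC were higher in CV at every ending, 4 of 5 genes, against 13.0% of all probe sets. For TAPX this rests on a pair of nearly equal signals at M, 339.1 and 336.6. The genes were grouped with earlier results of these arrays in view, so these counts describe the group and do not test it.

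**Figure D2:**
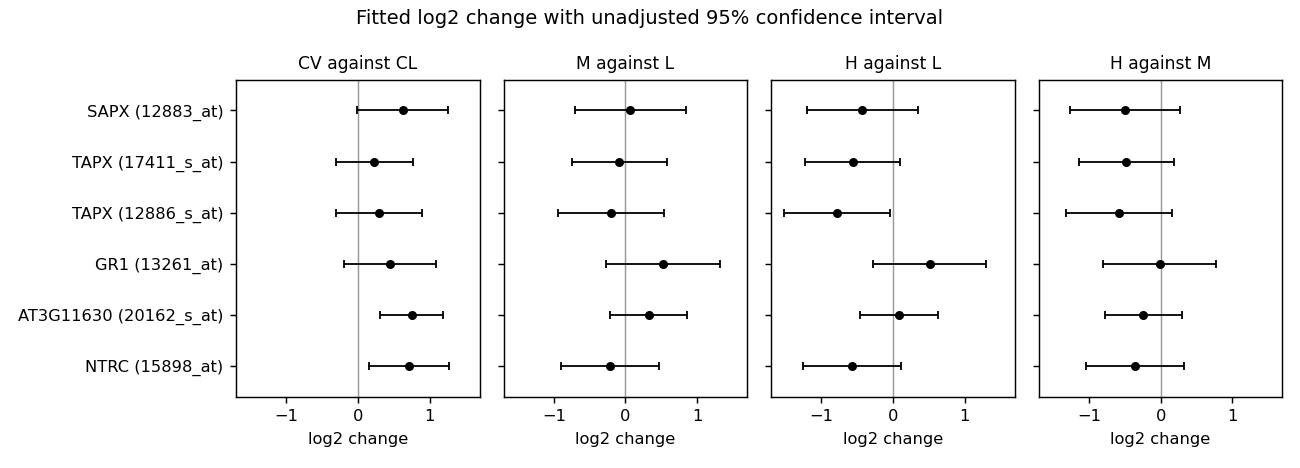
Fitted log2 changes (points) of the 6 member probe sets in 4 comparisons, with unadjusted 95% confidence intervals as bars, from the additive limma model over 6 arrays; the first TAPX probe set is drawn ahead of the second. For CV against CL all 6 points lie above 0 and the intervals of AT3G11630 and NTRC do not reach 0; for H against L the interval of the second TAPX probe set is the only one that does not include 0.

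The endings ask which transcripts differ between L, M and H in both starts alike, with 2 arrays in each. The L arrays, CLL and CVL, are also the only ones whose growth records give a dark period, so ending L and that record cannot be told apart. TAPX, NTRC and SAPX had their lower signals at H, whereas GR1 and, by a small change, the plastid enzyme gene AT3G11630 were higher at H than at L. For H against L the fitted log2 changes were -0.56 (SE 0.29) and -0.78 (SE 0.32) for the 2 TAPX probe sets, -0.57 (SE 0.30) for NTRC and -0.43 (SE 0.34) for SAPX. They were 0.51 (SE 0.34) for GR1 and 0.08 (SE 0.24) for AT3G11630, whose direction turned after quantile normalization (-0.02). Single arrays moved these values: GR1 had 0.04 without CLH and 0.98 without CVH, SAPX -0.08 without CLL and -0.78 without CVL, the second TAPX probe set -0.45 without CLH, and NTRC -0.39 without CLH. In both starts the H array was below the L array for SAPX, TAPX and NTRC, 3 of 5 genes against 25.5% of all probe sets. GR1 and AT3G11630 were higher in both starts, 2 of 5 against 25.7%.

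In TAPX the signal of the first probe set at H was 0.720 times that at L in CL and 0.631 times in CV, and that of the second 0.498 and 0.667 times. NTRC at H was 0.610 times L in CL and 0.717 times in CV. The unadjusted 95% interval of the change from L to H reached from -1.522 to -0.045 for the second TAPX probe set, and included 0 for the other members. No member passed the test: adjusted p in limma ran from 0.794 to 0.959 for H against L, where 0 of all probe sets were called (0%) and 349 had an unadjusted p under 0.05. The H arrays are also the ones with the highest GAPDH 3-prime to 5-prime ratios, 6.21 in CLH and 5.50 in CVH, and the part of RNA quality in these differences was not tested.

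Between H and M, SAPX, TAPX, AT3G11630 and NTRC were lower at H in both starts, 4 of 5 genes against 20.4% of all probe sets. The fitted log2 changes were -0.50 (SE 0.34) for SAPX, -0.48 (SE 0.29) and -0.58 (SE 0.32) for TAPX, -0.24 (SE 0.24) for AT3G11630 and -0.36 (SE 0.30) for NTRC. GR1 had -0.01 (SE 0.34), a mean of opposite changes in the starts, and it was above 0 after quantile normalization (0.01). Without CVM, SAPX had -0.08 and the second TAPX probe set -0.93, and without CLM they had -0.91 and -0.22 and NTRC -0.14. The median of the 5 genes was -0.36, against 0.04 over all probe sets. The adjusted p was at least 0.994 for all 6 probe sets in limma, with 0 probe sets called (0%) and 256 at an unadjusted p under 0.05. The same GAPDH ratios set H apart from M.

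Between M and L, GR1 had the largest fitted change of the 5 genes, 0.52 (SE 0.34), followed by AT3G11630 with 0.32 (SE 0.24). The order of these values rests on CVM, without which GR1 had 0.15 and AT3G11630 0.34, and without CLM GR1 had 0.90. Both were higher at M than at L in both starts, as were 16.6% of all probe sets, and NTRC was lower in both (-0.22, SE 0.30), as were 24.9%. The NTRC change was -0.002 without CVM and -0.43 without CLM. SAPX had a change of 0.07 (SE 0.34), and the TAPX probe sets of -0.08 (SE 0.29) and -0.21 (SE 0.32). The direction of the SAPX and TAPX changes turned when single arrays were left out. For SAPX the single arrays ran opposite ways: M was 0.729 times L in CL and 1.51 times L in CV. The adjusted p was 0.999 for all 6 probe sets in limma, with 0 probe sets called (0%) and 74 at an unadjusted p under 0.05.

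How far the order of the 6 arrays could be read depended on the spread used. The tests above use limma's moderated SD, which borrows from the other probe sets: 0.24 on the log2 scale for AT3G11630, 0.29 and 0.32 for the TAPX probe sets, 0.30 for NTRC and 0.34 for both SAPX and GR1. The residual SD of each probe set alone, on 2 degrees of freedom, was 0.026 for AT3G11630, 0.15 and 0.32 for TAPX, 0.19 for NTRC, 0.36 for SAPX and 0.41 for GR1. Against the moderated spread of a difference of 2 arrays, 1 of the 5 steps between neighbours was wider for AT3G11630 (CLM to CVL, 0.43), for NTRC (CLH to CLM, 0.62), for SAPX (CVL to CVM, 0.58) and for the second TAPX probe set (CLH to CVH, 0.73), and none for GR1 or the first TAPX probe set. Against their own spread, 5 of 5 steps were wider for AT3G11630, 3 for NTRC and 3 for the first TAPX probe set, and the counts of the others were as before. Both cuts are only 1 SD of a difference, 0.037 for AT3G11630 by its own spread. Each own SD also comes from the same 6 values as the steps, so these counts cannot establish the order of the arrays.

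The profiles of the members were compared by the root mean square difference between log2 values centred on each gene's mean over the 6 arrays, where 0 means the same shape. This is a description over 6 arrays that all genes share, with no test. The TAPX probe sets differed by 0.18. Between genes the closest pair was TAPX and NTRC, at 0.26 by the first and 0.25 by the second probe set, followed by AT3G11630 and NTRC (0.31) and by AT3G11630 and SAPX (0.31). GR1 stood at 0.33 from AT3G11630, 0.46 from SAPX, 0.53 from the first TAPX probe set and 0.58 from NTRC. Of the other 2421 named genes, 4.01% were closer to GR1 than AT3G11630 was and 51.4% were closer to GR1 than NTRC was, while 5.99% were closer to AT3G11630 than NTRC was.

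**Figure D3:**
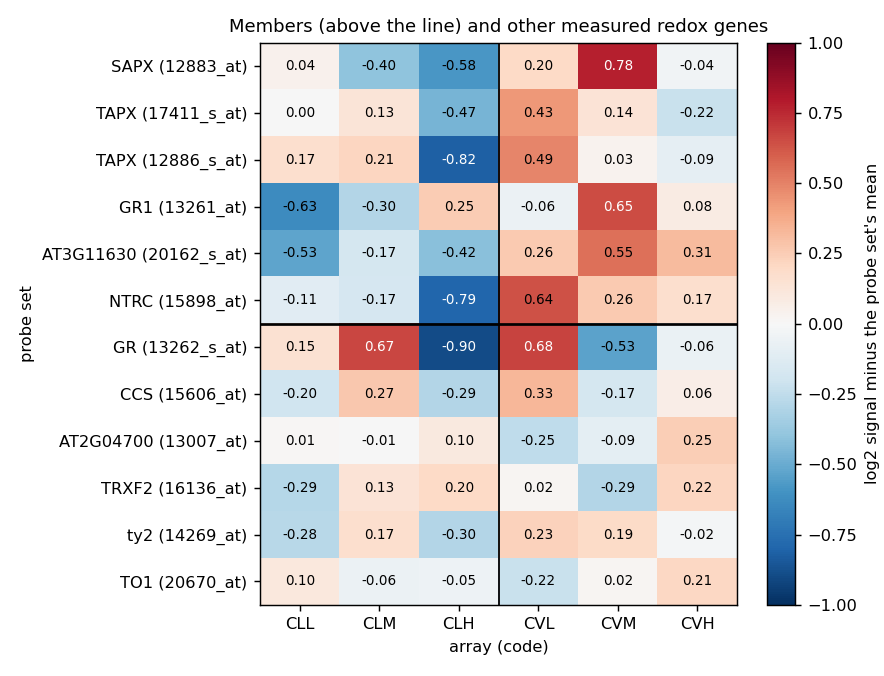
Log2 signal minus the mean of the probe set over 6 arrays, for the members (above the horizontal line) and the other measured genes of the redox lists (below it), with the CL arrays to the left of the vertical line and the CV arrays to its right, and the first TAPX probe set above the second. AT3G11630 is between -0.53 and -0.17 on the CL arrays and between 0.26 and 0.55 on the CV arrays.

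GR, the gene of the plastid and mitochondrial glutathione reductase, was measured beside GR1, by a probe set that also carries the _s suffix. It read 175.6 (L), 252.2 (M) and 82.7 (H) on the CL arrays, and 253.8 (L), 107.7 (M) and 150.5 (H) on the CV arrays. GR was lowest in CLH, where GR1 had its highest CL signal, and CVM, the highest array of GR1, was the second lowest of GR. For GR the log2 difference of CV from CL was 0.52 (L), -1.20 (M) and 0.83 (H), and for GR1 0.58, 0.95 and -0.17 in the same order. The fitted change from CL to CV of GR was 0.05 (SE 0.39, adjusted p = 0.978 in limma) and that from L to H was -0.89 (SE 0.48, adjusted p = 0.863 in limma), lower in both starts. The profile of GR was 0.90 from that of GR1, with 88.6% of named genes closer to GR, and 0.42 from that of TAPX, with 4.5% closer to GR. From the side of TAPX that difference was near the median over named genes, 0.46. The difference between the patterns of GR and GR1 was not tested.

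**Figure D4:**
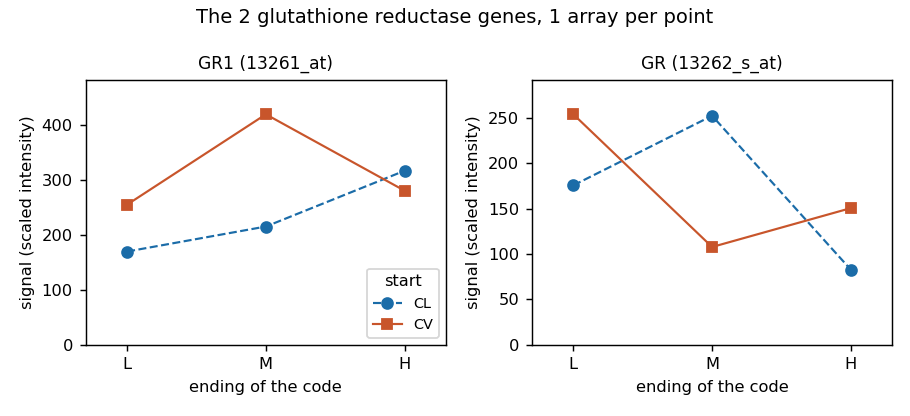
Signal (scaled intensity, linear axis from 0) of the 2 glutathione reductase genes by ending of the code, CL as circles on dashed lines and CV as squares on solid lines, 1 array per point. GR1 goes from 169.7 to 316.7 from L to H in CL, and GR from 175.6 to 82.7.

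Of the wider redox lists (the ascorbate-glutathione cycle, superoxide dismutases and catalases, peroxiredoxins and glutathione peroxidases, thioredoxins with their reductases, and ascorbate and glutathione synthesis), 6 of the 78 genes other than the members were on the array under a name. They were GR, CCS, which encodes the copper chaperone of superoxide dismutase, AT2G04700, entered as the catalytic subunit of ferredoxin-thioredoxin reductase, and the thioredoxin genes TRXF2, ty2 and TO1. From CL to CV, 4 of the 6 had a fitted change above 0 and 2 below, against 40.05% above 0 over all named genes. The median of the 6 was 0.03, against -0.10 over all named genes. In either direction, 0 of the 6 passed the test in any of the 4 comparisons. The largest of these changes was that of ty2, a thioredoxin of the y type, at 0.27 (SE 0.24), which read 99.1 (L), 136.1 (M) and 97.6 (H) on the CL arrays and 142.6 (L), 138.7 (M) and 118.8 (H) on the CV arrays. CCS followed with 0.15 (SE 0.26) and AT2G04700 with -0.06 (SE 0.19). AT2G04700, which belongs to the ferredoxin-driven system that reduces plastid thioredoxins, read 2520.0, 2491.7 and 2676.9 in CL and 2105.0, 2345.8 and 2976.8 in CV. The separation of the starts seen in AT3G11630 and NTRC was found in 0 of these 6 genes, and in 7.36% of all probe sets, so a count of 0 among so few genes is unremarkable.

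For each member the 3 named genes with the nearest profiles were taken over the same 6 arrays. Those of AT3G11630 were AT2G20270 (0.12), AT4G02530 (0.13) and AT2G38330 (0.13), against a median of 0.56 over 2421 genes. AT2G20270 read 53.4, 76.0 and 56.3 in CL and 109.2, 102.5 and 97.4 in CV. Its starts did not overlap either, which its choice by likeness to AT3G11630 favours. Those of NTRC were AT4G27380 (0.14), AT4G36130 (0.15) and OEP16-3 (0.17), and AT4G36130 read 282.0, 258.9 and 166.3 in CL and 455.0, 460.1 and 308.1 in CV. Nearest to SAPX were AT2G16800 (0.11), AT1G60590 (0.13) and IQD22 (0.13), the first with a signal of 233.2 in CVM and at most 168.4 elsewhere. Nearest to TAPX were AT1G30690, AT4G33120 and AT1G04430 (0.08, 0.09 and 0.09), and to GR1 AT2G46540, AT2G42350 and AT4G13210 (0.14, 0.17 and 0.18). The last 2 had low signals, 7.9 to 19.9 for AT2G42350 and 7.8 to 15.7 for AT4G13210, against 169.7 to 419.4 for GR1.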

How the data were processed

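The deposited table holds intensity values on a linear scale, 1 per probe set and array, and the trimmed mean (2% from each end) is the same on all arrays; the authors' software and scaling steps are among the points not given in the sources used here. Per the labels, biotin-labelled cRNA was hybridised to Affymetrix arrays with 8297 probe sets, 1 array per code, so the number of arrays limits the precision. Values were analysed as log2(value + 3.9), the offset being the 20th percentile of all values; a log2 change on this scale understates changes at low signal. Left out were 50 control probe sets and the 30% of the rest with the lowest mean (2474, at or below 8.85), which kept 5773, all 6 member probe sets among them. An additive model of start and ending was fitted with limma 3.58.1 in R 4.3.3 (lmFit, eBayes with intensity trend, 2 residual degrees of freedom), with Benjamini-Hochberg adjustment over all 5773 and calls at adjusted p under 0.05. Any difference between starts in the effect of the endings counts as error. The fit was tested on simulated data that held no such difference, so that test cannot check the additive model.

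Probe sets were named by the platform annotation, updated through TAIR10.1 gene identifiers: 3794 had 1 gene (3784 matched to a locus), 70 several and 4433, controls included, none listed; a gene with several was read by the brightest. Members and lists were chosen with earlier results of these data known. Named are all members, up to 4 genes per list by size of the change from CL to CV, and the 3 nearest profiles per member. Alternatives were other offsets (1, 16), no filter or 50%, quantile normalization, no intensity trend, no ending term, the other TAPX probe set, and each array left out.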

Additional observations from a re-analysis of the deposited data

Results flagged for a closer look

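In 4 cases, pairs of single-array changes of the members had opposite signs in CL and CV, which was not tested because each code had 1 array; over all probe sets opposite signs were common, at 58.0% from L to M and 51.6% from M to H. From L to M, SAPX had a log2 difference of -0.44 in CL and of 0.58 in CV. TAPX had 0.13 in CL and -0.30 in CV by its first probe set, and 0.044 and -0.456 by the second. From M to H, GR1 had 0.55 in CL and -0.57 in CV. The part of single-array error in these differences was not tested.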

How the results depend on the processing

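No member probe set passed the test in any comparison under any alternative, and the log2 changes from CL to CV stayed above 0 for all 6 under all of them. With 1 array left out they ranged from 0.73 to 0.76 for AT3G11630, 0.59 to 0.86 for NTRC and 0.35 to 0.86 for SAPX. For GR1 the range was 0.20 to 0.76, and for TAPX 0.13 to 0.34 by the first probe set and 0.07 to 0.53 by the second. After quantile normalization the change was 0.66 for AT3G11630, 0.67 for SAPX and 0.78 for NTRC, so that of AT3G11630 was no longer the largest. Over all alternatives the adjusted p for CV against CL ran from 0.128 to 0.674 for AT3G11630 and from 0.229 to 0.703 for NTRC. The median of the 5 genes with 1 array left out lay between 0.35 (without CLM or CVM) and 0.70 for CV against CL, and between -0.429 and -0.075 (without CLL) for H against L.

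Direction was lost in small changes. After quantile normalization, which moved the median of all probe sets for CV against CL from -0.10 to -0.01 and the share above 0 from 40.5% to 49.1%, AT3G11630 had -0.021 for H against L and GR1 0.014 for H against M. With 1 array left out, M against L ranged from -0.35 to 0.48 for SAPX, -0.25 to 0.08 for TAPX by the first probe set and -0.56 to 0.15 by the second, and H against M from -0.48 to 0.46 for GR1. The cause was not tested.

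The 2 probe sets called over the whole array for CV against CL became 0 without the intensity trend and 0 without the ending term. With 1 array left out, which leaves 1 residual degree of freedom, the counts were 1 to 257 for CV against CL (with CVL left out 257, CLL 251, CVH 57, CLH 55, and CLM or CVM 1). They were 0 to 38 for M against L (CVL 38, CLL 16), 0 to 64 for H against L (CLL 64, CVL 54, CLH 3, CVH 2) and 0 to 10 for H against M (CVL 10, CLL 9, CLH 3). The comparison of CV with CL pairs arrays by ending in the fit itself. No paired analysis by replicate number was possible because each code had 1 array.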
